A study of Homo sapiens with 9 samples.

Results

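The mRNAs for the proteins of the mitochondrial ribosome were measured in extracellular vesicles released by H9 human embryonic stem cells. The members are all genes whose symbol in the array annotation is MRPL or MRPS followed by a number, with pseudogenes and antisense genes left out. The rule gave 75 genes, carried by 140 probe sets, of 19775 genes and 54675 probe sets on the array, and RefSeq lists 77 such genes in all. MRPL53 and MRPS24 have only probe sets that are also paired with another gene, and they were not analysed here. Of the members, 50 encode proteins of the large subunit, among them MRPS30 and MRPS18A, which carry a small subunit name but sit in the large one, and 25 encode proteins of the small subunit. The rule used no measured value.

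Vesicle preparations of 3 kinds from the serum-free, feeder-free culture medium of H9 cells, grown in mTeSR1 on Matrigel, were measured on 3 Affymetrix HG-U133 Plus 2.0 arrays each, 9 in all. H9 is a long-established human pluripotent line derived from an embryo, and no cells were treated or modified. Microvesicles (MVs) were pelleted for 1 hour at 16500g. Exosomes (EXOs) were pelleted for 2 hours at 120000g from what remained, after clearing spins at 300g and 2800g, the first of them written as 200g in the MVs labels. hESEVs are the vesicles that were not fractionated. Their labels give a clearing spin at 300g, none at 2800g, and the same final spin as for EXOs. The methods instead describe a clearing spin faster than 2800g and a faster final spin, and which protocol these arrays followed is not known here. Each comparison with hESEVs therefore also holds a difference in clearing, and its part was not tested. These pellets are defined by their spins and may each hold other particles.

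Mitochondria have ribosomes of their own, which translate the few proteins that mitochondrial DNA encodes, all of them subunits of the respiratory chain and of ATP synthase. The ribosomal RNA is made inside the organelle, but every protein of this ribosome is encoded in the nucleus, translated on cytosolic ribosomes and imported. Some of these proteins are classed here as having a homologue in bacterial ribosomes, and the others as mitochondria-specific. The second class includes MRPS18A and MRPS18B, whose family has a bacterial homologue, so it is no list of proteins without a bacterial relative.

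The authors deposited MAS5 signals, a linear intensity per probe set, with every array scaled to the same trimmed mean. A signal is therefore relative to the other signals of its array, and fewer vesicles with an mRNA cannot be told apart from less of it per vesicle. The paper reports RNA of much greater length in MVs than in EXOs, and its part in the results was not tested. The probes of the array lie towards the 3′ end of each mRNA, and the log2 ratio of the 3′ over the 5′ control probe set of GAPDH was 1.53 in MVs, 0.67 in EXOs and 1.04 in hESEVs, while for ACTB it was 4.57 in MVs, 2.61 in EXOs and 3.24 in hESEVs. Of 16 markers of pluripotent stem cells, the cells of origin, 10 were higher in MVs than in EXOs and none was lower (median log2 fold change 1.56). Of all genes, 11.6% were higher and 2.77% lower. The 50 genes restricted to other tissues had a summed signal of 22678 to 25504 in MVs, against 29366 to 30976 in EXOs, and hESEVs gave 27662 to 29721. Their 90th percentile, taken as the background level, was 1380.0 in MVs, 1324 in EXOs and 1202 in hESEVs. These values move with the vesicle types, and their part in the results was not tested.

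Most mRNAs of the mitochondrial ribosome gave a higher signal in MVs than in EXOs, in both subunits. Of the 75 members, 59 (78.7%) were higher in MVs by at least 2-fold with a p under 0.05 after Benjamini-Hochberg adjustment (limma, two-sided), beside 11.6% of all 19775 genes. None was lower in MVs, beside 2.77% of all genes, also at an unadjusted p with the same fold and with the methods' t-test; at an unadjusted p under 0.05 and any fold, 1 member was lower. The median log2 fold change, MVs minus EXOs, was 1.97 over the members, with a middle range of 1.31 to 2.88, and -0.23 over all genes. Of the 59, 36 differed at least 4-fold and 16 at least 8-fold. With quantile normalization 56 members were higher in MVs and 1 was lower, and with median centring 61 were higher and none was lower. Of all genes, 2162 were higher and 848 lower with quantile normalization, and 2770 and 193 with median centring, in place of 2293 and 548.

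The signals of the members gave a sum of 155828 to 164776 in the 3 MVs preparations, against 41179.6 to 42709 in EXOs, with hESEVs at 69629 to 77514. No group overlapped another in this sum. The median member had a mean signal of 1685 in MVs, 486 in EXOs and 847 in hESEVs. In MVs 51 members had a mean above the background level, against 3 in EXOs (MRPL30, MRPL32 and MRPL57, named after their values were seen) and 17 in hESEVs; of all genes 12.5% were above it in MVs, 8.7% in EXOs and 12.4% in hESEVs. Of the 59 called members, 57 (96.6%) had an EXOs mean at or under the background level of that group, beside 86.9% of all genes higher in MVs, so the size of their folds is uncertain. Among the same 59, 46 (78.0%) had an MVs mean above the MVs background level. The remaining called members lay at or under the level of each group in both MVs and EXOs. For 66 of the 75 members the 3 MVs arrays and the 3 EXOs arrays did not overlap, in either direction, beside 41.4% of all genes.

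**Figure D1:**
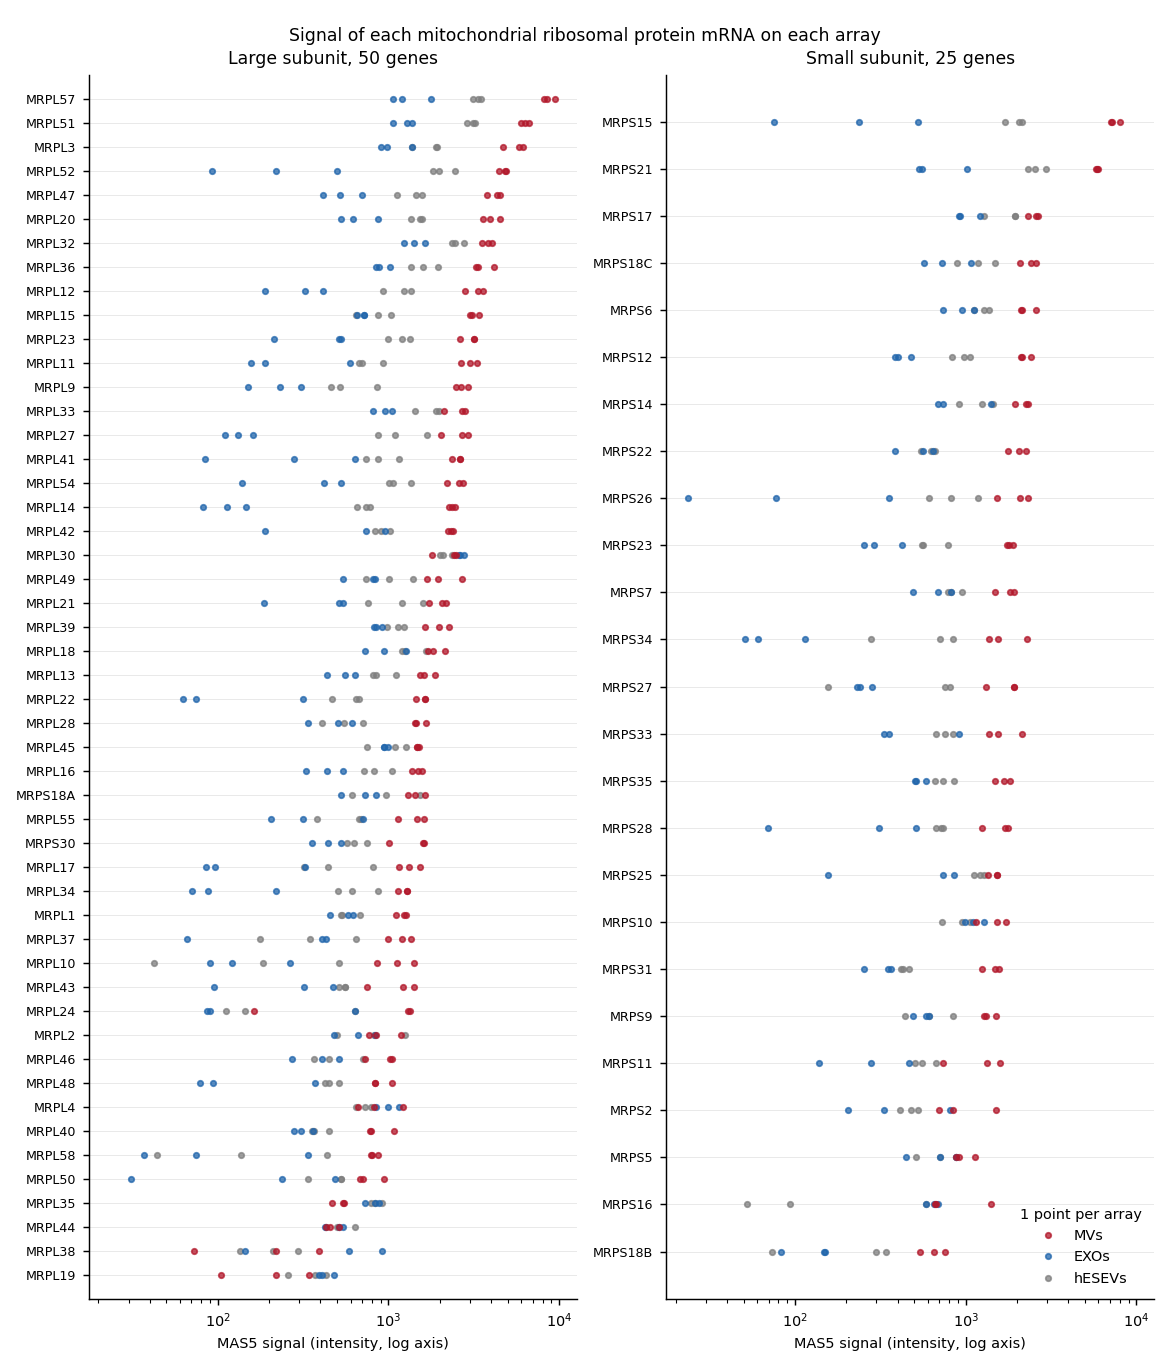
MAS5 signal (intensity, log axis) of each of the 75 members on each of the 9 arrays, 1 point per array, with MVs in red, EXOs in blue and hESEVs in grey. The left panel holds the 50 large subunit genes and the right panel the 25 small subunit genes, ordered by their mean in MVs. For 66 members the MVs and EXOs points do not overlap, and MRPL57, MRPS15 and MRPL51 have the highest means in MVs.

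The mRNAs with the highest signal in MVs were MRPL57, MRPS15 and MRPL51. Levels of different genes are set by different probes and are not compared further. MRPL57, a mitochondria-specific protein of the large subunit, gave 8209, 9455 and 8481 in MVs, 1062, 1768 and 1204 in EXOs and 3332, 3116 and 3478 in hESEVs. MRPL51, another protein of the large subunit, gave 6343, 6667 and 5990.4 in MVs, 1069, 1291 and 1376 in EXOs and 2870.5, 3113 and 3231 in hESEVs. In both the 3 groups were apart, with hESEVs in the middle. The log2 fold change, MVs minus EXOs, was 2.73 for MRPL57 (standard error 0.18, adjusted p = 1.4e-05 from limma) and 2.35 for MRPL51 (standard error 0.12, adjusted p = 2.8e-06), which had the smallest p of all members.

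MRPS15, the homologue of a bacterial protein that binds the small subunit RNA early in assembly, had the largest fitted difference of all members with all 6 arrays, and this rank did not hold without EXOs replicate 3. Its signal was 7999, 7186 and 7096 in MVs, 236, 524 and 75.7 in EXOs and 2130.2, 2052 and 1709 in hESEVs. The fitted difference between MVs and EXOs was 35.2-fold (log2 fold change 5.14, standard error 0.58, adjusted p = 0.00039 from limma). The MVs arrays lay close together while the EXOs arrays spread widely under the background level, and its log2 fold change was 4.40 without EXOs replicate 3, where MRPS26 gave 5.29, MRPS34 4.93 and MRPL22 4.53, and 5.79 without EXOs replicate 2.

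In the small subunit, MRPS34, MRPS26 and MRPS21 came next with all 6 arrays. MRPS34, a mitochondria-specific protein, gave 2274, 1553 and 1362 in MVs, 60.5, 50.8 and 114 in EXOs and 840.5, 705 and 279.6 in hESEVs, with a fitted difference between MVs and EXOs of 24.0-fold (log2 fold change 4.58, standard error 0.47, adjusted p = 0.00021). MRPS26, also mitochondria-specific, gave 1518, 2329 and 2075 in MVs and 77, 23.6 and 356 in EXOs (log2 fold change 4.34, standard error 0.79, adjusted p = 0.0057), with its lowest value raised to the floor of 32 before the test; without EXOs replicate 2 it gave 3.55 and without EXOs replicate 3 5.29. MRPS21, the homologue of a bacterial small subunit protein, was even among MVs, with 5854, 5921 and 5791, against 551, 529.9 and 1020.1 in EXOs (log2 fold change 3.13, standard error 0.24, adjusted p = 3e-05). None of these overlapped between MVs and EXOs.

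MRPS12, the homologue of the bacterial protein at the decoding centre, gave 2097, 2136 and 2403 in MVs and 402, 386 and 479 in EXOs (log2 fold change 2.39, standard error 0.17, adjusted p = 2.1e-05). MRPS23, which is mitochondria-specific, gave 1886, 1798 and 1737 in MVs and 423, 291 and 254 in EXOs (log2 fold change 2.52, adjusted p = 0.00014). MRPS27, a pentatricopeptide repeat protein, gave 1925, 1912 and 1321 in MVs and 231, 284 and 239.5 in EXOs (log2 fold change 2.76, adjusted p = 0.0001). In each the groups were apart. MRPS27 was represented by another probe set when any 1 MVs array was left out (log2 fold change -0.30 to -0.15) or all 9 arrays were fitted (-0.23), and was then not called.

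In the large subunit, MRPL52, MRPL14, MRPL27 and MRPL22 had the largest fitted differences with all 6 arrays. MRPL52, a mitochondria-specific protein, gave 4916, 4452 and 4824 in MVs, 219.7, 499 and 92.2 in EXOs and 2455, 1817 and 1980.2 in hESEVs, a 21.9-fold difference between MVs and EXOs (log2 fold change 4.45, standard error 0.52, adjusted p = 0.00044). MRPL14, the homologue of a protein at the face of the large subunit towards the small one, gave 2454, 2353 and 2269 in MVs, 146, 113 and 81.5 in EXOs and 784, 658 and 742 in hESEVs (21.4-fold, log2 fold change 4.42, standard error 0.32, adjusted p = 2.2e-05). The 3 groups were apart in both genes, and MRPL52 gave 5.05 without EXOs replicate 2 and 3.84 without EXOs replicate 3.

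MRPL27, whose bacterial homologue reaches towards the peptidyl transferase centre, gave 2022, 2711 and 2914 in MVs and 131, 109.9 and 161 in EXOs (19.1-fold, log2 fold change 4.25, standard error 0.28, adjusted p = 1.4e-05). MRPL22, whose homologue lines the exit tunnel of the nascent chain, gave 1443, 1634 and 1635 in MVs and 62.2, 74.5 and 318 in EXOs (log2 fold change 3.78, standard error 0.61, adjusted p = 0.0031). Every MVs array lay above every EXOs array for both, and MRPL22 gave 4.53 without EXOs replicate 3. MRPL47, whose bacterial homologue sits near the tunnel exit (3779 to 4516 in MVs, 415 to 698 in EXOs, log2 fold change 2.98) and MRPL15 (3024 to 3393 in MVs, 652 to 724 in EXOs, log2 fold change 2.18) were among the members with the smallest p, at adjusted p = 1.4e-05 and 5.4e-06.

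The promoters of 4 of these members, and of MRPS10, which was not called, are shown because they differ in which motif cores they hold. RefSeq promoters (GRCh38.p14, from 250 bases before to 50 bases after the first listed start of each gene) were found for 67 of the 75 members, and not for MRPL2, MRPL10, MRPL13, MRPL15, MRPL21, MRPL23, MRPL35 and MRPS28. The 3 cores were searched on both strands: CCGGAAG, bound by ETS factors such as GABPA, AAGATGGCG, bound by YY1, and GCGCATGC, the core bound by NRF1. Each line ends at the base before the annotated start, reads 5′ to 3′ on the strand of the gene and has the cores on either strand in capitals. Windows are at chr1:36464385-36464504 (minus strand) for MRPS15, chr14:22829687-22829886 (plus) for MRPL52, chr16:1773135-1773254 (minus) for MRPS34, chr17:50373185-50373304 (minus) for MRPL27 and chr6:42217862-42217981 (minus) for MRPS10.
MRPS15: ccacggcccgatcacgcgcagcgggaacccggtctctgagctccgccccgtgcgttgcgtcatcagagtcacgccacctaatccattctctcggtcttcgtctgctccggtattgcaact
MRPL52: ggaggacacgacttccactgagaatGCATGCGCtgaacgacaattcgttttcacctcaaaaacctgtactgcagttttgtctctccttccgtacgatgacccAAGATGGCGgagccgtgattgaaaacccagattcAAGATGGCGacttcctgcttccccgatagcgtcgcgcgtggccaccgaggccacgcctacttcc
MRPS34: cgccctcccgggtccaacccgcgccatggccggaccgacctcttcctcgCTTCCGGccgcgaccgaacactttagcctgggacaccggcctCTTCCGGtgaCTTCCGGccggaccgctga
MRPL27: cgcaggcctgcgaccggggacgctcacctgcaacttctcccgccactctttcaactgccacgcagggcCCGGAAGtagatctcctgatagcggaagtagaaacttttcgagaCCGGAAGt
MRPS10: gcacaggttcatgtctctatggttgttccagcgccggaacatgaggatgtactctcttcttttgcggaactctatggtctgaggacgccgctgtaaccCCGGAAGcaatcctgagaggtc
In windows of 120 bases, MRPS34 held 3 ETS cores, MRPL27 held 2, MRPS10 held 1 and MRPS15 held none of the 3 cores. The window of MRPL52 is longer, at 200 bases, and held 2 YY1 cores and 1 NRF1 core. Its NRF1 core, at -175, lies outside the last 120 bases, so the counts are not compared between windows.

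Over the whole 300 bases the ETS core was found in 28 of 67 members (41.8%), against 10.7% of all 27305 promoters and 14.2% of the 15842 promoters of protein-coding genes. The YY1 core was found in 12 members (17.9%), against 1.85% of all promoters and 2.74% of the protein-coding ones. The NRF1 core was found in 6 members (8.96%), against 3.27% and 4.26%. At least 1 of the 3 cores was in 37 members and 30 held none. The median log2 fold change, MVs minus EXOs, was 2.26 over the 28 members with the ETS core and 1.67 over the 39 without it, 1.81 over the 12 with the YY1 core and 1.96 over the 55 without it, and 2.83 over the 6 with the NRF1 core and 1.96 over the 61 without it. A match of letters is a description of the sequence and no measured binding.

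**Figure D2:**
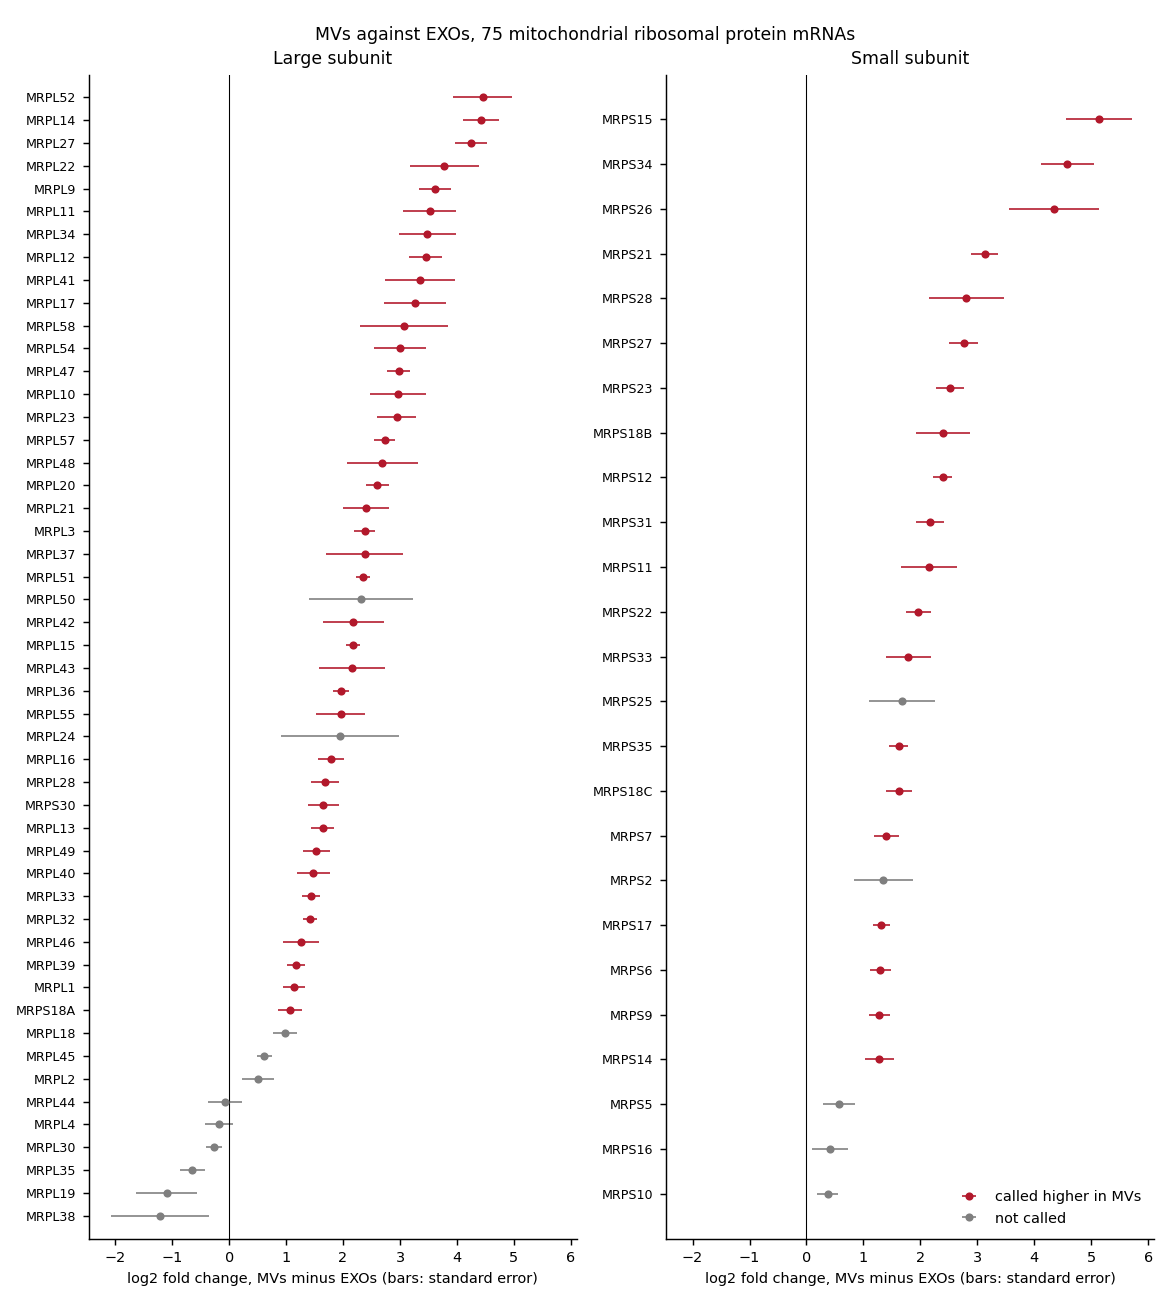
The log2 fold change, MVs minus EXOs, of each of the 75 members (points) with its standard error from limma (bars), large subunit on the left and small subunit on the right. Red points are the 59 members called higher in MVs and grey points the 16 not called. The values run from -1.22 for MRPL38 to 5.14 for MRPS15.

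Both subunits showed the difference between MVs and EXOs. In the large subunit 39 of 50 members were higher in MVs (median log2 fold change 2.17) and in the small subunit 20 of 25 (median 1.79). By these classes, 23 of 30 large subunit proteins classed with a bacterial homologue (median 2.08) and 16 of 20 classed as mitochondria-specific (median 2.17) were higher in MVs. In the small subunit these were 11 of 15 (median 1.35) and 9 of 10 (median 2.28). The difference between these classes was not tested.

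Members with a role of their own were also followed. MRPL12, the stalk protein of the large subunit, which also binds the mitochondrial RNA polymerase, gave 3329, 2799.8 and 3577 in MVs and 189.9, 413 and 324 in EXOs (log2 fold change 3.45, standard error 0.29, adjusted p = 5.4e-05). MRPL41, a mitochondria-specific large subunit protein, gave 2611, 2629 and 2365 in MVs and 84.6, 281 and 641 in EXOs (log2 fold change 3.35, adjusted p = 0.0064). Both were apart between the groups, and MRPL41 gave 2.58 without EXOs replicate 1 and 4.04 without EXOs replicate 3. MRPS30, a protein of the large subunit despite its name, was 3.14-fold higher in MVs (1406 ± 348, against 442 ± 85.4 in EXOs, SD, n = 3 arrays each, adjusted p = 0.003 from limma).

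The 3 members of the MRPS18 family, paralogues of 1 bacterial protein that take different places in the ribosome, were all higher in MVs. MRPS18B gave 753, 655 and 543 in MVs and 147, 82.2 and 150.0 in EXOs, a 5.29-fold difference (log2 fold change 2.40, standard error 0.47, adjusted p = 0.0084). MRPS18C gave 2585, 2402 and 2071 in MVs and 731, 570.1 and 1074 in EXOs, a 3.06-fold difference (log2 fold change 1.62, standard error 0.23, adjusted p = 0.0016). MRPS18A, which sits in the large subunit, gave 1644, 1424 and 1298 in MVs and 847, 733 and 529 in EXOs, a 2.10-fold difference (log2 fold change 1.07, standard error 0.21, adjusted p = 0.0095). MVs and EXOs were apart for all 3, and without EXOs replicate 3 MRPS18A had a log2 fold change of 0.88 and was not called. MRPS18B gave 3.64 without EXOs replicate 1 and 3.82 without EXOs replicate 3, both on another probe set. With no array left out, that probe set gave 3.88, so these values do not show the effect of 1 array. The MVs signals of MRPS18B lay under the MVs background level of 1380.0, so the size of its fold is uncertain. Differences among the 3 paralogues were not tested. The protein once named MRPS36, now KGD4 and a subunit of the 2-oxoglutarate dehydrogenase complex, is annotated under its present name and is no member; its log2 fold change was 1.91 (adjusted p = 2.7e-05).

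MRPL45, which anchors the ribosome to the inner membrane near the tunnel exit, was not called. It gave 1477, 1509 and 1461 in MVs, 946, 1001 and 945 in EXOs and 751, 1274 and 1091 in hESEVs. MVs and EXOs were apart, with an adjusted p of 0.012 from limma, but the difference was 1.54-fold, under the threshold of 2-fold. MRPL18, whose bacterial homologue binds the 5S RNA, missed that threshold as well, at 1.97-fold (1889.6 ± 225 in MVs, 977 ± 269.6 in EXOs, SD, n = 3 arrays each, adjusted p = 0.014 from limma). It was called without MVs replicate 2 (log2 fold change 1.05) and without EXOs replicate 1 (1.19).

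The other 14 members not called had an adjusted p above 0.05. In the small subunit MRPS10 gave 1519, 1729.7 and 1149 in MVs and 1099, 986 and 1279 in EXOs (log2 fold change 0.37, standard error 0.19, adjusted p = 0.2), and MRPS5, the homologue of a protein at the mRNA entry, gave 872, 1132 and 914 in MVs and 448, 706 and 876 in EXOs (0.57, standard error 0.28, adjusted p = 0.19). Both overlapped between MVs and EXOs. MRPS16 (0.41, standard error 0.32, adjusted p = 0.39), MRPS2 (1.35, standard error 0.52, adjusted p = 0.11) and MRPS25 (1.67, standard error 0.58, adjusted p = 0.079) were not called either. MRPS2 was called without EXOs replicate 2, at a log2 fold change of 1.90.

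In the large subunit MRPL50 had a log2 fold change of 2.31 with a standard error of 0.91 (adjusted p = 0.11), since its EXOs arrays gave 489, 31 and 239 beside 942, 685 and 708 in MVs. MRPL24 gave 164, 1342 and 1307 in MVs and 86.3, 90 and 639.9 in EXOs, so that 1 array of each group stood apart from the others (log2 fold change 1.95, standard error 1.04, adjusted p = 0.22). MRPL2, the homologue of a protein near the peptidyl transferase centre, overlapped between the groups, with 766 to 1189.7 in MVs and 483 to 838 in EXOs (0.51, adjusted p = 0.23). The standard errors of MRPL50 and MRPL24 are wide, and a p above the threshold does not show equal levels.

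In all, 6 members had a log2 fold change under 0, all of them in the large subunit and none called. MRPL38 gave 389.6, 72.5 and 219.8 in MVs and 145, 585 and 921 in EXOs (log2 fold change -1.22, standard error 0.86, adjusted p = 0.35). MRPL19 gave 341, 219 and 104 in MVs and 481, 394 and 407 in EXOs (-1.10, standard error 0.54, adjusted p = 0.19), and MRPL35 gave 552, 467 and 542 in MVs and 878, 836 and 729 in EXOs (-0.65, standard error 0.22, adjusted p = 0.078). MRPL19 and MRPL35 did not overlap between MVs and EXOs, but all their values lay under the background level. MRPL30 was bright in every group, with 1792, 2433 and 2493 in MVs, 2772, 2608 and 2639 in EXOs and 2372, 2102 and 2001 in hESEVs (-0.27, standard error 0.14, adjusted p = 0.22), and with quantile normalization it was the 1 member called higher in EXOs, at -1.28. MRPL4 (-0.18, adjusted p = 0.65) and MRPL44, which has a ribonuclease III-like fold (-0.08, adjusted p = 0.87), overlapped between the groups, and their sign turned with median centring of the arrays (0.05 and 0.15). With the mean of probe sets the sign turned for MRPL19 (0.66), MRPL35 (0.62), MRPL30 (0.14), MRPL4 (1.81) and MRPL44 (0.60), but not for MRPL38. MRPL19 gave 2.51 to 2.71, on another probe set, when any 1 EXOs array was left out, and MRPL4 gave 0.02 without MVs replicate 3.

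Probe sets of the same gene did not always give the same picture. Each gene was represented by the brightest of its probe sets on the log2 scale, and of all 140 probe sets of the members 71 were higher in MVs and none was lower, beside 7.23% of the 54613 probe sets tested that were higher in MVs. Of the 65 probe sets that did not represent their gene, 14 were higher in MVs and 51 were not called, and their median MVs signal was 425, against 1685 for the 75 that did. For 21 of the 37 genes with several probe sets, the log2 fold changes differed in sign between them. At least 1 probe set was called higher in MVs for 61 members. Of the 38 members with a single probe set, 34 were called higher in MVs (median log2 fold change 1.96), and all 38 had a log2 fold change above 0; of the 37 with several, 25 were called (median 2.15).

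For MRPS15, another probe set gave 1280.5, 945 and 837 in MVs and 16.9, 46.3 and 127 in EXOs (log2 fold change 4.13), while a further one, at 317 ± 228 in MVs and 600.1 ± 39.5 in EXOs (SD, n = 3 arrays each), gave -1.31. For MRPL4, a dimmer probe set gave 893, 732 and 778 in MVs and 183, 93 and 54.5 in EXOs and was called higher in MVs (3.03), unlike the one that represents it. For MRPL19, a dimmer probe set gave 887, 403 and 669 in MVs and 94.6, 94.7 and 126 in EXOs and was called as well (2.58). For MRPS16, another probe set had a mean of 1468 in MVs and 92.1 in EXOs and was called (4.01). So 3 of the 16 genes not called had a probe set that was.

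Other members whose probe sets differed in sign were higher in MVs on the probe set that represents them. MRPL20, the homologue of a bacterial protein needed early in large subunit assembly, gave 3577, 3932 and 4505 in MVs and 525, 622 and 869 in EXOs (log2 fold change 2.60, adjusted p = 3.1e-05). MRPL23 gave 2644, 3158 and 3192 in MVs and 516, 528 and 215 in EXOs (2.94, adjusted p = 0.0004), and MRPL39 gave 2259, 1989 and 1636 in MVs and 819.8, 918 and 849.9 in EXOs (1.17, adjusted p = 0.0011). These 3 genes did not overlap between MVs and EXOs. MRPL42 had 1 EXOs array far below the others, with 961, 189.7 and 739 in EXOs beside 2324, 2238 and 2398 in MVs (2.18, standard error 0.53, adjusted p = 0.022), and MRPS11 gave 1339, 1583 and 732 in MVs and 138, 277 and 464 in EXOs (2.15, standard error 0.49, adjusted p = 0.018). Without MVs replicate 1 or without MVs replicate 2, neither MRPL42 (2.18 and 2.20) nor MRPS11 (2.05 and 1.93) was called, and MRPL42 was not called without MVs replicate 3 (2.15) and gave 1.46 without EXOs replicate 2. MRPS31 gave 1493, 1247 and 1563 in MVs and 252, 363 and 352 in EXOs (2.17, adjusted p = 0.00038), but -1.05 to -0.77 on another probe set when any 1 MVs array was left out. The 32 members not described one by one were all higher in MVs than in EXOs, with log2 fold changes from 1.14 for MRPL1 to 3.61 for MRPL9.

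MRPL57 was called on 3 of its 4 probe sets, with log2 fold changes of 2.73, 1.20 and 1.15, and MRPL41 on 3. For MRPS27 and MRPS31, the fit of all 9 arrays took another probe set for each, with log2 fold changes, MVs minus EXOs, of -0.23 and -0.92, neither called. The same probe sets were taken for both genes where 1 MVs array was left out. With probe sets left out whose name marks them as not specific to 1 transcript (names ending in _s_at, _x_at or _a_at), 44 of the 75 members could be measured, and 23 of them were higher in MVs. The count over all genes fell as well, from 2293 to 1304.

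**Figure D3:**
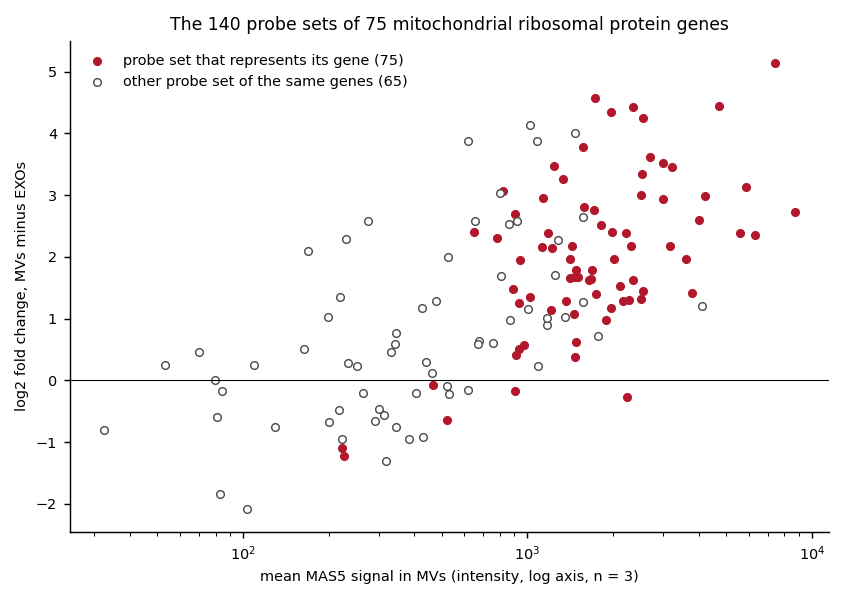
The log2 fold change, MVs minus EXOs, of the 140 probe sets of the 75 members against their mean MAS5 signal in MVs (intensity, log axis, 3 arrays). Filled points represent their gene (75) and open points are the other probe sets of the same genes (65). The open points lie mostly at lower signals, with a median of 425, against 1685 for the filled ones.

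Non-fractionated hESEVs lay between the fractions. The mean of hESEVs was between those of MVs and EXOs for 68 of 75 members (90.7%), beside 52.7% of all genes. Of all genes called higher in MVs than in EXOs, 93.9% had it between, so this position is not particular to the members. The median member reached 45.7% of its MVs signal in hESEVs (middle range 36.5% to 57.6%) and 27.1% in EXOs (15.0% to 41.2%). In the fit of all 9 arrays, 29 of 75 members were higher in MVs than in hESEVs, beside 7.17% of all genes, and none was lower (2 at an unadjusted p under 0.05 and any fold, 0 with the methods' t-test at an unadjusted p and the same fold of 2). The median log2 fold change, MVs minus hESEVs, was 1.11, and -0.15 over all genes. With quantile normalization 11 members were called, and without MVs replicate 2 there were 19. The count over all genes fell as well, from 1417 to 600 with quantile normalization and to 1130 without MVs replicate 2.

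MRPL15 had the smallest adjusted p of the members in this comparison, with 3024, 3097 and 3393 in MVs and 1036, 869 and 642 in hESEVs (log2 fold change, MVs minus hESEVs, 1.93, standard error 0.18, adjusted p = 2.6e-05). For MRPL57 it was 1.40 (adjusted p = 0.00015), for MRPL51 1.04 (adjusted p = 9.3e-05) and for MRPS15 1.92 (adjusted p = 0.029). MRPS15 was not called without any 1 of the MVs or hESEVs arrays (1.83 to 1.99, adjusted p = 0.069 to 0.093 from limma), and MRPL51 fell just short of 2-fold without hESEVs replicate 1. MRPL52 (1.19, adjusted p = 0.11) and MRPS34 (1.62, adjusted p = 0.057) were not called against hESEVs. MVs arrays and hESEVs arrays of MRPL52 and MRPS34 still did not overlap.

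Set against hESEVs, 19 of 75 members were lower in EXOs, beside 3.28% of all genes, and none was higher (2 at an unadjusted p under 0.05 and any fold, 0 with the methods' t-test at an unadjusted p and the same fold of 2). The median log2 fold change, EXOs minus hESEVs, was -0.69, and 0.00 over all genes. MRPL52 gave -3.26 (standard error 0.45, adjusted p = 0.00098), MRPS15 -3.21 (adjusted p = 0.0026) and MRPL27 -3.15 (adjusted p = 3.5e-05). Without EXOs replicate 2 MRPL52 gave -3.86 and MRPS15 -3.87, and without EXOs replicate 3 they gave -2.64 and -2.47. For MRPL51 it was -1.31 (adjusted p = 2.6e-05) and for MRPL15 -0.25 (adjusted p = 0.6). Both comparisons use the same hESEVs arrays and are not independent of each other.

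Genes that work with the mitochondrial ribosome were taken from lists and set beside the members in MVs against EXOs. The share of all genes to set beside each list was 11.6% higher and 2.77% lower in MVs. Of the 4 measured proteins of this ribosome that have no MRP symbol, CHCHD1 was higher in MVs (2608, 2712 and 2647, against 513, 237 and 18.8 in EXOs, log2 fold change 4.08, adjusted p = 0.012), while DAP3, PTCD3 and GADD45GIP1 were not called (0.06, 0.37 and -0.19). Of 10 translation factors 4 were higher in MVs (median 0.96), among them the elongation factors TUFM (2.60, adjusted p = 7.5e-05) and GFM1 (2.09, adjusted p = 0.00031) and the initiation factor MTIF2 (1.17, adjusted p = 0.034). Of 28 genes for ribosome assembly and modification of its RNA, 7 were higher in MVs (median 0.47), with NDUFAB1, an acyl carrier protein of the mitochondria, at 3.10 (adjusted p = 6e-07) and MALSU1, which binds the large subunit beside MRPL14, at 2.80 (adjusted p = 1.1e-05). None of these lists had a member lower in MVs.

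Of 22 genes for mitochondrial transcription and RNA handling, 6 were higher in MVs (median 0.61), beside 11.6% of all genes. Among the 6 were SLIRP (3.84, adjusted p = 1.3e-07) and its partner LRPPRC (2.26, adjusted p = 0.0049), which together keep mitochondrial mRNAs stable. Of 3 genes for the insertion of newly made proteins into the inner membrane, OXA1L (3.33) and COX18 (2.28) were higher in MVs. Subunits of oxidative phosphorylation encoded in the nucleus were higher in MVs for 62 of 67 genes (median 3.03), and proteins of the cytosolic ribosome for 52 of 53 (median 3.71). The share of members called (78.7%) thus stood between those of the last pair of lists and those of the factor and assembly lists, as a description with no test. Median MVs signals ran in the same order for these lists, but not with the other lists added. The list of transcription and RNA handling, with 6 of 22 called, had a median MVs signal of 1015. Ribosome proteins without an MRP symbol, with 1 of 4 called, had 1426, and insertion genes, with 2 of 3 called, had 803. The lists in order had 82459.6 for cytosolic ribosomal proteins, 5508 for nuclear subunits of oxidative phosphorylation, 1685 for the members, 948 for translation factors and 853 for assembly. The medians of factors and assembly lay under the MVs background level of 1380.0, and the part of signal level was not tested.

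The RNAs encoded by mitochondrial DNA, which include the mRNAs that this ribosome translates, were also measured. All 7 measured were higher in MVs than in EXOs (median log2 fold change 4.18), yet none was called between MVs and hESEVs (median -0.18), and all 7 were lower in EXOs than in hESEVs (median -4.37). The median of these RNAs in hESEVs was 114% of the MVs signal, against 45.7% for the members, 37.8% for the nuclear subunits of oxidative phosphorylation and 34.5% for cytosolic ribosomal proteins. The difference between these lists was not tested.

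**Figure D4:**
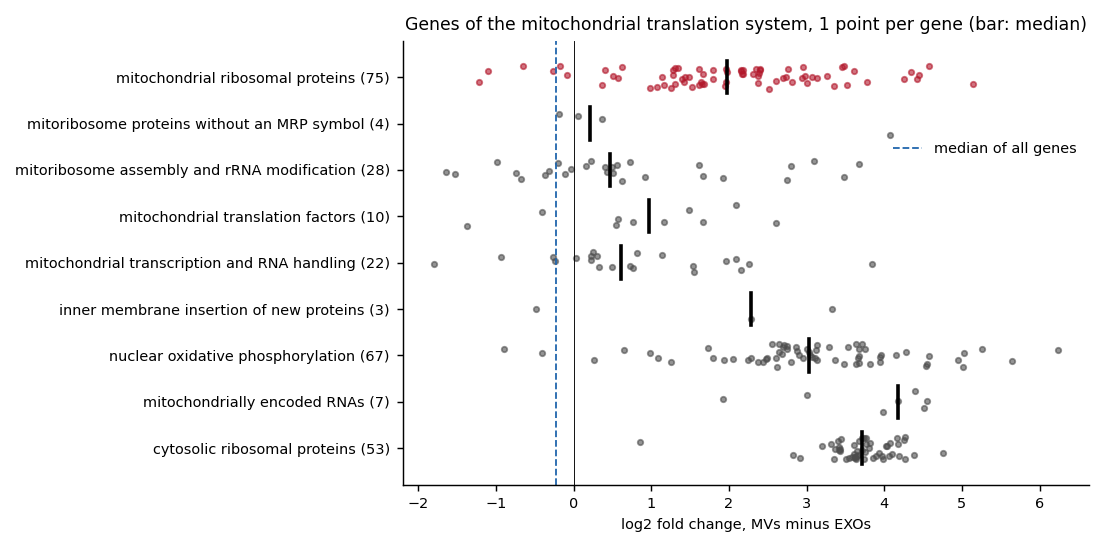
The log2 fold change, MVs minus EXOs, of the genes of each list, 1 point per gene, with the number of genes in brackets and the median of the list as a black bar. The 75 members (red) have a median of 1.97, between the assembly list (0.47) and the cytosolic ribosomal proteins (3.71), and the dashed line marks the median of all genes at -0.23.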

How the data were processed

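RNA of MVs, EXOs and hESEVs released by H9 cells was measured on 3 arrays each. The authors deposited MAS5 intensities, scaled to a target of 500 on each array; the version of MAS5 is not given in the sources used here. Per the paper, MVs and EXOs were released by the same set of cultures, and which arrays share a culture is not given in the sources used here. Genes were assigned to probe sets from the platform annotation: 41091 have 1 gene, 1801 several and 11721 none named here, and 62 controls were left out. Signals under 32 were raised to 32 and log2 was taken. Of several probe sets of a gene, the one whose log2 signals averaged highest in the arrays compared was used. MVs and EXOs were compared on their 6 arrays and each fraction with hESEVs in a fit of all 9, by moderated linear models with an intensity trend (limma 3.58.1 under R 4.3.3, two-sided), and p-values were adjusted by Benjamini-Hochberg over all genes. A gene was called at an adjusted p under 0.05 and at least 2-fold. Probe sets were also tested in a fit of their own, an alternative added after seeing the data.

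Members named with their values are the 4 with the largest fold and the 4 with the smallest p of each subunit, those not called, those with a negative log2 fold change, the 3 brightest in MVs, those whose probe sets differ in sign and those with a role of their own; others are named after their values were seen. The members and lists were chosen with earlier results of these data known. The alternatives were quantile normalization, median centring, a floor of 1 or of 100, removal of dim genes, the mean of a gene's probe sets, no shared probe sets, no trend, no adjustment, the methods' t-test, a block for the replicate number, fits with more or fewer groups and omission of each array. The procedure was tested on simulated data. The precision is limited by the number of arrays, which give no counts. RMA needs probe intensities and was not repeated. Summaries used pandas 2.3.3, numpy 2.4.6 and, for plots, matplotlib 3.10.9 (Python 3.11.15).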

Additional observations from a re-analysis of the deposited data

How the results depend on the processing

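The median difference of all genes between MVs and EXOs, -0.23 on the log2 scale, was -0.12 with quantile normalization and 0.01 with median centring; the members' median was 1.79 and 2.21. It was 1.79 with the filter on low signals, 1.48 with the mean of probe sets and 1.42 without shared probe sets, with which 23 of 44 measured members were higher in MVs in place of 59 of 75. Under the other planned settings this count ran between 41 and 62. All genes called higher in MVs, 2293 in the report, were 1304 without shared probe sets and 1655 to 2770 under the other planned settings. Quantile normalization called 1 member, MRPL30, higher in EXOs. With each array left out, the count of members higher in MVs was 47 to 59 and their median 1.86 to 2.21. Members higher in MVs than in hESEVs, 29 in the report, were 11 with quantile normalization, 10 without shared probe sets and 44 with the methods' t-test without adjustment, and 19 to 35 with an array left out. All genes called in this comparison, 1417 in the report, were 600, 722 and 1810 under the first 3 of these settings. The members' medians were 0.88 with quantile normalization, 1.32 with median centring, 0.92 with the mean of probe sets and 0.87 without shared ones. Members lower in EXOs than in hESEVs, 19 in the report, were 10 with the mean of probe sets, 3 without shared probe sets, 3 with the adjusted t-test, 11 with the EXOs and hESEVs arrays alone and 14 to 21 with an array left out; the medians were -0.50 with the mean of probe sets and -0.41 without shared ones, and -0.84 to -0.68 with an array left out. No pairing of the arrays by replicate number was seen (correlations of deviations between -0.014 and 0.014), which does not show that no arrays share a culture. With a replicate block 58 members were higher in MVs than in EXOs.

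Of 43 named members, 7 turned sign without shared probe sets: MRPL20 (-0.81), MRPL23 (-1.84), MRPL39 (-0.67), MRPL42 (-0.75), MRPS15 (-1.31), MRPS5 (-0.76) and MRPL30 (0.71). With the mean of probe sets 5 did: MRPL19 (0.66), MRPL30 (0.14), MRPL35 (0.62), MRPL4 (1.81) and MRPL44 (0.60). MRPL4 gave 0.05 and MRPL44 0.15 with median centring, and MRPL44 gave 0.14 with quantile normalization. In the fit of 9 arrays MRPS27 gave -0.23 and MRPS31 -0.92, on other probe sets. With an array left out, MRPL19 ran from -1.49 to 2.71, MRPL4 from -0.42 to 0.02, MRPS27 from -0.30 to 2.85 and MRPS31 from -1.05 to 2.26. MRPL42 was not called without any 1 of the MVs arrays (2.15 to 2.20), and MRPS11 not without MVs replicate 1 (2.05) or 2 (1.93). For the alternatives that take another probe set or fewer genes, their construction shows the change; for the others the cause was not tested. EXOs signals near the background level limit the size of the folds.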
